A study of Mus musculus with 4 samples.

Results

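The ratios of 10 glycolytic genes were compared between a mouse fibroblast line, NIH3T3, carrying a transfected Erbb2 gene and the same line without it. They are 10 of the 9081 genes with a named and usable value. They were chosen by gene symbol with earlier results of these data known, so their counts beside all genes are description only. Hk1, Pfkp, Aldoa, Aldoc, Tpi1, Gapdh, Pgam1, Eno3 and Ldhb encode enzymes from the entry of glucose to the handling of lactate. Slc16a3 encodes a lactate exporter. All 10 had a value on each of the 4 arrays. Glycolysis splits glucose into pyruvate in the cytosol and yields ATP without oxygen. Lactate dehydrogenase then interconverts pyruvate and lactate, and monocarboxylate transporters carry lactate across the plasma membrane. Growth factor receptor signalling and hypoxia are both known to act on the expression of several glycolytic genes in cultured fibroblasts.

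RNA of the transfected line and RNA of the untransfected line were hybridised together on 4 two-colour arrays. The dyes were swapped per the labels: arrays 1 and 2 had the transfected RNA in Cy5, whereas in arrays 3 and 4 Cy3 marked it. One line was described as overexpressing Erbb2, a receptor tyrosine kinase gene, and the other as having normal Erbb2 expression. The arrays are technical replicates in the series design, so each line stands for 1 biological sample, and errors and p-values cover the spread between arrays, not between cultures. The sources used here do not say which promoter drives the transfected gene, from which species it comes or whether the line is 1 clone. The extraction protocol in the labels speaks of organs, although every sample is labelled as a cell line. No probe was named for Erbb2, so its level was not analysed here. Values are log2 ratios, with a positive value for a higher level in the transfected line. That direction is likely but unstated. Ratios beyond 15 either way, which were dropped, all lay above 0 on arrays 1 and 2 (63 and 120 values) and all below 0 on arrays 3 and 4 (121 and 114). Such signs would arise if 1 dye orientation had been turned before deposit, but alone they do not settle it. Arrays of both orientations correlated positively across genes (r from 0.12 to 0.20). All signs would turn together if the direction were wrong. The file holds ratios without intensities, so the labelled cell type could not be checked by expression levels. In these bulk RNA samples, fewer cells with a transcript and less transcript per cell cannot be told apart.

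Of the 10 genes, 6 lay below 0 on 4 of 4 arrays: Pfkp, Aldoa, Tpi1, Pgam1, Eno3 and Ldhb. Among the 6327 genes with 4 values, 13.0% lay below 0 on 4 of 4 arrays. The same 6 had a mean below 0, as did 56.1% of all genes, so the share of means below 0 was near the background. None of the 10 lay above 0 on every array, where the share among all genes was 9.58%. Hk1, Aldoc, Gapdh and Slc16a3 had mixed signs. The median of the 10 mean log2 ratios was -0.56, against -0.08 over all tested genes. With each array centred on its median the corresponding medians were -0.51 and -0.03, and 5 genes lay below the array median on 4 of 4 arrays (11.4% of all genes); the gene that left this group was Pgam1. No glycolytic gene passed limma's test over all genes at an adjusted p under 0.05 (0 of 10, with 0% called among all genes), and their Benjamini-Hochberg adjusted p ranged from 0.283 to 0.912. At limma's unadjusted p under 0.05, 3 of the 10 were lower (Pfkp, Aldoa and Ldhb) and 0 were higher. Over the whole table the shares were 7.49% lower and 4.05% higher. Without array 1, 2 or 3 this count was 1, namely Pfkp each time, and without array 4 it was 4, with Tpi1 added. Without array 4, 1 gene was higher at that level, Aldoc, with a mean of 1.41 (limma, unadjusted p = 0.0128). In the rows as deposited the count of lower genes was 1 among 8 tested. Hk1 and Ldhb did not have 4 values there and were not tested. For single genes, means with an array left out are limma's fitted means, which weight both dye orientations equally. A plain mean of the remaining arrays can differ from them in sign. The first 6000 rows alone held 3 of the genes with a median of -1.19. In the rows below them 8 were tested, with a median of -0.17. Pfkp and Tpi1 had probes there but not 4 values, so that median leaves them out. In the rows as deposited 3 of the 8 tested genes lay below 0 on every array.

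**Figure D1:**
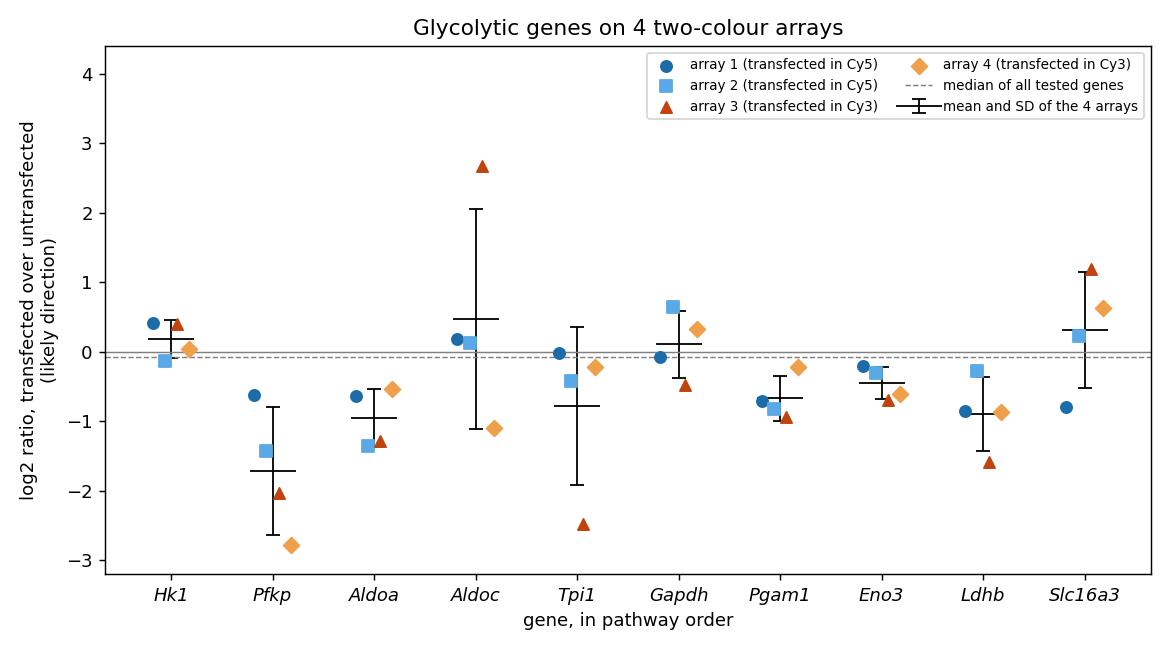
Log2 ratio (vertical axis) of each of 10 glycolytic genes (horizontal axis, in pathway order) on 4 arrays; points are arrays, black bars the mean and SD of the 4 arrays, and the dashed line is the median of all tested genes at -0.08. All points of Pfkp, Aldoa, Tpi1, Pgam1, Eno3 and Ldhb lie below 0, while Aldoc spans -1.10 to 2.67.

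The sequences before the start sites of the 3 genes with the smallest unadjusted p are shown with that of Gapdh, which lay near 0, so that the promoters of genes with unlike ratios can be read side by side. They are the 250 bases upstream of the start in the RefSeq table of GRCm38.p6, 5′ to 3′ on the gene's strand. Capitals mark ACGTG or GCGTG on either strand, the core letters of the element bound by hypoxia-inducible factors; CACGT and CACGC are the same letters read on the other strand.
Pfkp, chr13:6648772-6649021, minus strand: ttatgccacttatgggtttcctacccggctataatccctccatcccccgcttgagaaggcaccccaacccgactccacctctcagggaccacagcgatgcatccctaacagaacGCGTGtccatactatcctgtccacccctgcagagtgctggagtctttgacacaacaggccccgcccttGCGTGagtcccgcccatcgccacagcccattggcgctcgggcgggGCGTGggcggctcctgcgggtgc
Aldoa, chr7:126799255-126799504, minus strand: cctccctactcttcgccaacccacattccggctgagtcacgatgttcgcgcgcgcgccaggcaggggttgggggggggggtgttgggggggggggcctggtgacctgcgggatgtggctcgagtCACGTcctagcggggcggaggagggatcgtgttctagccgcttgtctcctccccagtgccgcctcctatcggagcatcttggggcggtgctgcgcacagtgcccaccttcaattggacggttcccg
Ldhb, chr6:142507958-142508207, minus strand: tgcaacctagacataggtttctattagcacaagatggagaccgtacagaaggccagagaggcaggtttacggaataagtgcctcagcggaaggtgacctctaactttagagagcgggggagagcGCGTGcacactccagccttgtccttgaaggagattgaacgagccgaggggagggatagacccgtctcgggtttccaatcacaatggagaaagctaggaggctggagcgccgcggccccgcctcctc
Gapdh, chr6:125165774-125166023, minus strand: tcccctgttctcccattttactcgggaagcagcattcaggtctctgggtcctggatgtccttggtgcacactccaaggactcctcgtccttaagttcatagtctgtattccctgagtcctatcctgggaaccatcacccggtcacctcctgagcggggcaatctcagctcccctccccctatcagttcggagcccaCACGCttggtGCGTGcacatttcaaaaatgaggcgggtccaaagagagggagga

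The Pfkp window held these letters at 3 places, the Gapdh window at 2 and the Ldhb window at 1. The Aldoa window shown, 1 of 3 that the table lists for that gene, held them at 1 place. All 10 genes matched the table by symbol, with 14 windows in total. One or the other core was present in 11 of these 14 windows (78.6%), and in 38.6% of all 32851 windows of this length. A pair of Aldoa windows overlap and share their single match, so 1 site is counted in both. By gene, 9 of 10 had a match in at least 1 window. No share by gene over all genes was computed, and Hk1, Aldoa and Aldoc have several windows and so more chances of a match. The windows were not matched for base composition. Tpi1 was the gene with neither core in its window, and its ratios lay below 0 on every array; the windows of Gapdh and Slc16a3, with mixed signs, held 2 matches each. The E-box CACGTG, which contains the first core, was in 0 of the 14 windows and in 6.02% of all windows. The GC box GGGCGG was in 6 of 14 (42.9%) and in 32.7% of all windows, and the TATA letters TATAAA were in 0 of 14 and in 12.4% of all windows. A match describes letters in the window and is no evidence of a bound factor.

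Among the enzymes of the upper steps of the pathway, Pfkp had the lowest mean. Pfkp encodes the platelet isoform of phosphofructokinase, which catalyses the committed step of glycolysis. Its log2 ratios were -0.62, -1.43, -2.04 and -2.78 on arrays 1 to 4. All 4 values were below 0, and both arrays with the transfected RNA in Cy3 were lower than both arrays with it in Cy5. The mean was -1.72 ± 0.92 (SD, n = 4), a 3.29-fold lower level, and lower than the mean of 98.2% of all genes. Limma gave a 95% interval of -2.53 to -0.90, an unadjusted p of 0.00268 and an adjusted p of 0.283. The mean was -1.02 with the transfected RNA in Cy5 and -2.41 with it in Cy3, and limma's unadjusted p for this dye term was 0.0814. One Pfkp probe lay in the first 6000 rows, where no row had to be moved, and carried all 4 values. The second had a value on array 3 alone, -1.90, beside -2.17 for the first probe on that array.

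Hk1 encodes hexokinase 1, which phosphorylates glucose as it enters the pathway. Its ratios were 0.41, -0.13, 0.41 and 0.04 on arrays 1 to 4. They lay on both sides of 0 and close to it, with a mean of 0.18 ± 0.27 (SD, n = 4). Limma's 95% interval was -0.55 to 0.92 (adjusted p = 0.816), so a difference of over 2-fold either way lay outside the interval.

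The aldolase genes Aldoa and Aldoc encode isoforms of the enzyme that splits fructose 1,6-bisphosphate, and they had unlike ratios. Aldoa, the form of muscle and of most proliferating cells, had -0.64, -1.35, -1.28 and -0.54 on arrays 1 to 4. All values were below 0, and the means of both dye orientations were close (-0.997 in Cy5 and -0.908 in Cy3). The mean was -0.95 ± 0.42 (SD, n = 4), a 1.93-fold lower level, with a limma interval of -1.75 to -0.15, an unadjusted p of 0.0278 and an adjusted p of 0.395. Leaving out array 1, 2 or 3 gave limma's unadjusted p of 0.0516, 0.144 and 0.117.

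Aldoa had probes with 4 values both in the rows used as deposited and in the moved rows. Its probe in the first 6000 rows had -0.79, -1.40, -1.41 and -0.66 on arrays 1 to 4. A second probe, in the lower rows with arrays 2 to 4 read 3 rows higher, had -0.49, -1.30, -1.15 and -0.41. Both probes thus gave lower values on arrays 2 and 3 than on arrays 1 and 4. The third probe lay among the 2300 rows that were left out, and its value on array 1, the array whose rows were not moved, was -1.25; its values on arrays 2 to 4 are not used here. As deposited, without the move, the second probe had no value on array 2, -1.11 on array 3 and 2.90 on array 4.

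Aldoc, the aldolase of brain, had 0.18, 0.13, 2.67 and -1.10 on arrays 1 to 4. Array 3 was far above 0 and array 4 below it. The mean of 0.47 ± 1.58 (SD, n = 4) had an SD above its size (limma, adjusted p = 0.789), and the fitted mean was -0.48 without array 3 and 1.41 without array 4. In the rows as deposited it was 0.096. Of 11 listed neuron and glia markers 5 were tested, with a median of -0.31 and list means between -0.74 and -0.26 over the arrays; the part of such cells in the Aldoc ratio was not tested.

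**Figure D2:**
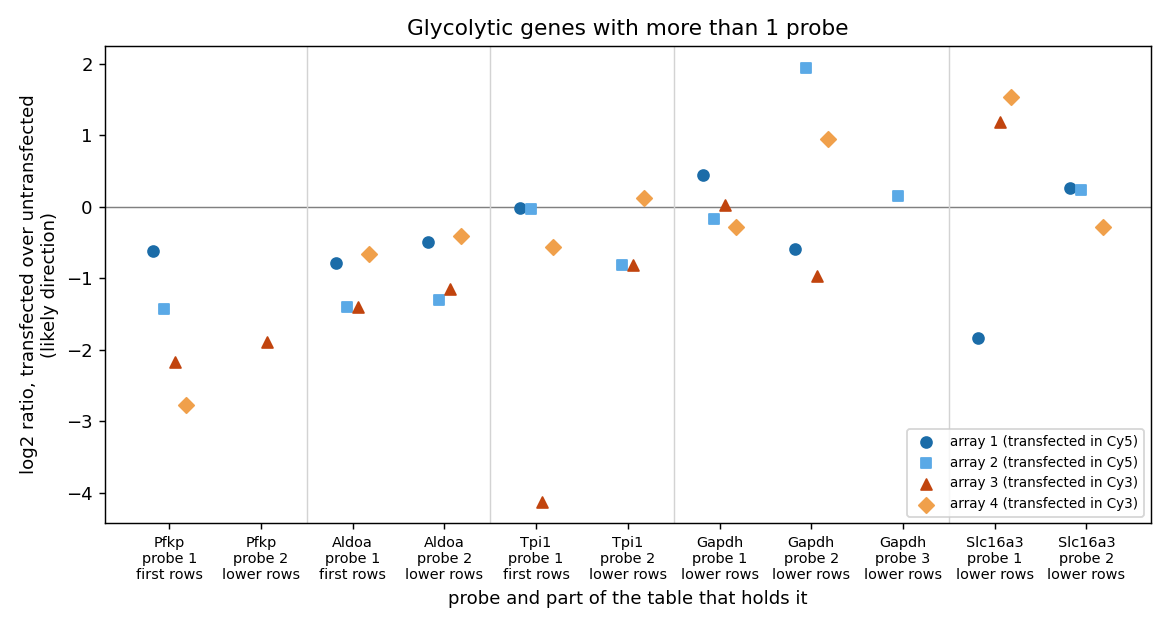
Log2 ratios (vertical axis) of the 5 glycolytic genes with more than 1 usable probe, 1 column per probe and 1 point per array; labels give the part of the table that holds the probe. The probe pair of Aldoa follows 1 pattern over the arrays, from -0.41 to -1.41, whereas the first Slc16a3 probe runs from -1.84 to 1.53.

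In the lower steps of the pathway Tpi1, Pgam1 and Eno3 lay below 0 on every array and Gapdh did not. Tpi1 encodes triose phosphate isomerase, which interconverts both products of aldolase. Its ratios were -0.02, -0.42, -2.47 and -0.22 on arrays 1 to 4. The value on array 1 was close to 0, and array 3 stood apart from the others. The mean of -0.79 ± 1.14 (SD, n = 4; limma, adjusted p = 0.539) became a fitted mean of -0.22 without array 3. The low value came from 1 probe, at -4.13 on array 3, where the other Tpi1 probe had -0.82. That other probe had no value on array 1. On array 4 it lay above 0, at 0.13, beside -0.57 for the first.

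Gapdh encodes glyceraldehyde 3-phosphate dehydrogenase, which is widely used as a reference gene. Its ratios were -0.07, 0.64, -0.47 and 0.33 on arrays 1 to 4, with 2 values on each side of 0. The mean was 0.11 ± 0.49 (SD, n = 4), with a limma interval of -0.70 to 0.92 (adjusted p = 0.912). The sign of the fitted mean was not stable: it was -0.015 with the median of the probes and -0.098 in the rows as deposited. Without array 2 it was -0.072, and without array 4 it was -0.094. The probe with the smaller spread had 0.45, -0.17, 0.02 and -0.28, and a second ranged from -0.97 to 1.95. Gapdh has many processed pseudogenes in the mouse genome, so its probes may share signal with near-identical copies.

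Pgam1 encodes the widely expressed phosphoglycerate mutase. Its ratios were -0.71, -0.82, -0.94 and -0.22 on arrays 1 to 4, all below 0 with array 4 the nearest to it. The mean was -0.67 ± 0.32 (SD, n = 4), a 1.59-fold lower level, with limma's interval from -1.42 to 0.08 and an adjusted p of 0.470. Eno3, the enolase of skeletal muscle, had -0.21, -0.31, -0.69 and -0.60, the narrowest spread of the 10 genes. Its mean was -0.45 ± 0.23 (SD, n = 4; limma, adjusted p = 0.554), lower than that of 74.5% of all genes, and -0.23 in the rows as deposited. Of 17 listed skeletal and heart muscle markers 11 were tested. Their median was 0.10, with list means between -0.37 and 0.06 over the arrays. On 4 of 4 arrays 3 lay below 0 and 1 above, beside 13.0% and 9.58% of all genes. The part of muscle-type expression in the Eno3 ratio was not tested.

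At the lactate end, the dehydrogenase and the transporter did not share a sign. Ldhb encodes the H subunit of lactate dehydrogenase, which favours the oxidation of lactate to pyruvate. Its ratios were -0.85, -0.28, -1.59 and -0.87 on arrays 1 to 4. All were below 0, the farthest on array 3. The mean was -0.90 ± 0.54 (SD, n = 4), a 1.86-fold lower level, with a limma interval of -1.68 to -0.12, an unadjusted p of 0.0315 and an adjusted p of 0.406. Without array 1, 2 or 3 limma's unadjusted p was 0.144, 0.069 and 0.13. Slc16a3 encodes MCT4, which exports lactate from glycolytic cells. Its ratios were -0.79, 0.23, 1.19 and 0.62, with array 1 below 0 and the others above it. The mean was 0.31 ± 0.83 (SD, n = 4; limma, adjusted p = 0.731). Its probes disagreed on array 1, at -1.84 and 0.27, and on array 4, at 1.53 and -0.28. The first probe had no value on array 2 and the second had none on array 3. The Slc16a3 ratios on arrays 2 and 3 thus rest on different probes. The fitted Slc16a3 mean was 0.059 without array 2 and -0.58 in the rows as deposited.

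Array by array, 8 of the 10 genes were below 0 on array 1, where 44.8% of all genes were. On arrays 2, 3 and 4 the count was 7 each time, beside 50.5%, 56.0% and 58.8% of all genes. The median of the 10 genes was -0.41, -0.29, -0.82 and -0.38 on arrays 1 to 4, and that of all tested genes 0.10, -0.01, -0.14 and -0.16. Thus the median of the glycolytic genes was below that of all genes on every array, by the widest margin on array 3. Without array 3 the median of their plain means over the remaining arrays was -0.32. Unlike the fitted means of single genes, these plain means do not balance the dye orientations. Ordered by mean, the genes ran from Pfkp through Aldoa, Ldhb, Tpi1, Pgam1 and Eno3 to Gapdh, Hk1, Slc16a3 and Aldoc. The ranges of neighbouring genes in this order overlapped in every case. The median SD over arrays was 0.51 for the 10 genes and 0.70 for all tested genes.

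**Figure D3:**
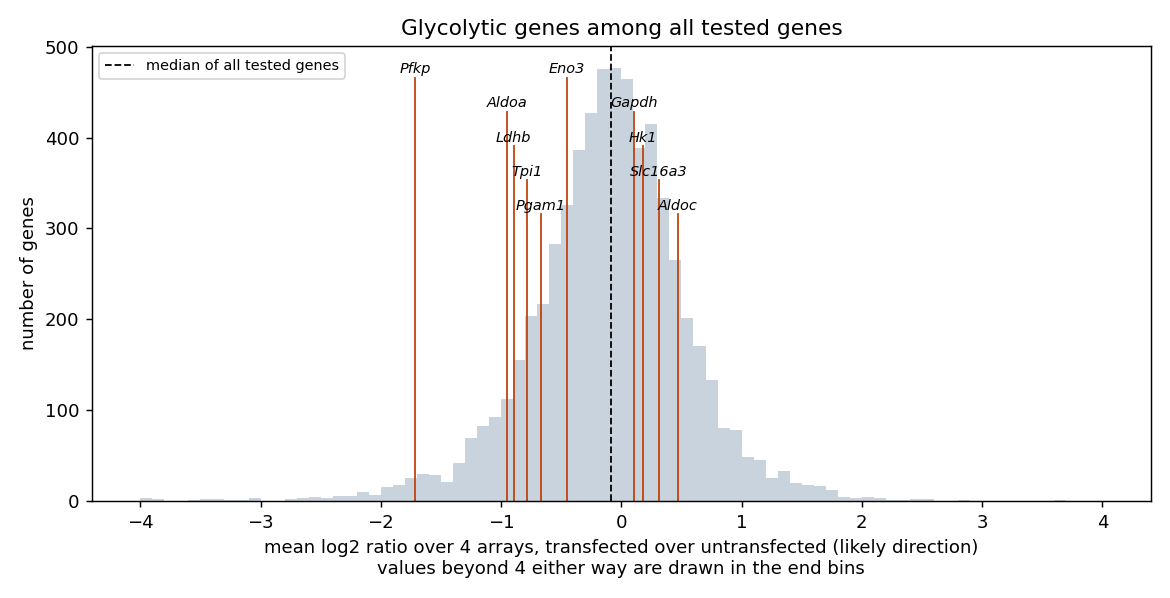
Histogram of the mean log2 ratio over 4 arrays (horizontal axis) for 6327 genes (vertical axis, number of genes), with vertical lines at the glycolytic genes and a dashed line at the median of all tested genes. Pfkp lies at -1.72 in the lower tail, 5 genes lie between -0.95 and -0.45, and Gapdh, Hk1, Slc16a3 and Aldoc lie between 0.11 and 0.47.

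Isoenzymes outside the set were measured in part. Of 20 other genes for glycolytic steps, 8 were tested: 0 passed over all genes, 1 lay below 0 on 4 of 4 arrays and 1 above, and the median of the means was -0.30. Among all genes 13.0% lay below 0 and 9.58% above 0 on 4 of 4 arrays, for this list and those that follow. Eno1b, an enolase gene, had -0.74, -1.0, -0.79 and -0.31 on arrays 1 to 4, with a mean of -0.71 ± 0.29 (SD, n = 4; limma, adjusted p = 0.437). Pkm, a pyruvate kinase gene, had 0.18, 1.17, 0.23 and 0.75, above 0 on every array, with a mean of 0.58 ± 0.47 (SD, n = 4, limma, adjusted p = 0.534). Pfkl, the liver isoform of phosphofructokinase, had the highest mean of the list (0.68 ± 0.83 (SD, n = 4)). Its probes differed in sign: one had 0.34, 1.75, 1.58 and 0.84 on arrays 1 to 4, and the other had -0.74 and -0.90 on arrays 1 and 3. Without array 2 the fitted Pfkl mean was 0.20, below that of Pkm (0.33), and the Pfkl mean was 0.24 in the rows as deposited. Bpgm, a bisphosphoglycerate mutase gene, had the lowest mean (-1.64 ± 2.92 (SD, n = 4)), which rested on -5.96 on array 2. Its fitted mean was -0.043 without that array. In the rows as deposited the Eno1b mean turned to 0.082 and that of Pkm was 0.045. Ldha, Pgk1, Gpi1 and Slc2a1 were not analysed here.

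Genes that act on pyruvate and lactate were tested for 7 of 21 listed; 0 passed over all genes, 3 lay below 0 on 4 of 4 arrays and 0 above, and the median was -0.41. Bsg encodes basigin, the chaperone that brings lactate transporters to the membrane. Its ratios were -0.86, -1.12, -0.83 and -0.48 on arrays 1 to 4, with a mean of -0.82 ± 0.26 (SD, n = 4; limma, unadjusted p = 0.0306 and adjusted p = 0.403). Both Bsg probes were below 0 on every array, with means of -0.97 and -0.67. In the rows as deposited the Bsg mean was -0.12. Pcx, which encodes pyruvate carboxylase, had -1.25, -0.71, -0.87 and -0.93 (mean -0.94 ± 0.23 (SD, n = 4); limma, adjusted p = 0.382), but 0.14 in the rows as deposited. Pdhb, a subunit gene of pyruvate dehydrogenase, had a mean of -0.85 ± 0.81 (SD, n = 4), and -0.47 in the rows as deposited. The mitochondrial pyruvate carrier gene Mpc1 had the highest mean, 0.61 ± 1.39 (SD, n = 4), with array 3 at -1.32. Its fitted mean was -0.19 without array 4, 1.41 without array 3 and 0.13 in the rows as deposited.

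Fbp1 lay on the other side of 0 with the least spread of the named genes. It encodes fructose 1,6-bisphosphatase, the gluconeogenic enzyme that opposes phosphofructokinase. Its ratios were 1.28, 1.39, 1.33 and 1.24 on arrays 1 to 4, above 0 in both dye orientations. The mean was 1.31 ± 0.06 (SD, n = 4), a 2.48-fold higher level, with limma's unadjusted p at 0.00438 and adjusted p at 0.303. It rests on 1 probe in the moved rows, and the mean of the rows as deposited was -0.99. Array 1, whose rows were not moved, gave 1.28. The other tested genes of gluconeogenesis and of fructose 2,6-bisphosphate control (5 of 14 listed were tested, with 0 called) had means from -0.32 to 0.26, the lowest in Pck2, the mitochondrial phosphoenolpyruvate carboxykinase gene.

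Branches from the pathway showed few shared signs. Of 20 glycogen genes 8 were tested, with a median of -0.41, 2 below 0 on 4 of 4 arrays and 1 above. Gys1, the glycogen synthase of muscle and most other tissues, had a mean of -0.75 ± 0.25 (SD, n = 4). Gaa, the lysosomal alpha-glucosidase gene, had -0.82 ± 0.37 (SD, n = 4), but 0.064 in the rows as deposited. The glycogenin gene Gyg was highest at 0.57 ± 0.44 (SD, n = 4). Of 11 pentose phosphate genes 3 were tested, from Rpia (-0.89 ± 1.10 (SD, n = 4)) to Taldo1 (-0.13 ± 0.51 (SD, n = 4)). The fitted Rpia mean was -0.29 without array 3, and the fitted Taldo1 mean was 0.13 without array 2. Of 12 glucose transporter genes 5 were tested, with a median of 0.01, from Slc2a2 (-0.53 ± 0.48 (SD, n = 4)) to Slc5a1 (1.09 ± 2.59 (SD, n = 4)). The fitted Slc5a1 mean was -0.43 without array 3, and Slc2a2 had 0.61 in the rows as deposited. Of 19 genes of side branches 6 were tested, from Galt at -0.31 to Mdh1 at 0.28. None of these lists held a gene that passed over all genes.

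In the tricarboxylic acid cycle, 12 of 17 listed genes were tested, with 0 called and a median of 0.04. Below 0 on 4 of 4 arrays lay 4 of them, and above 0 none, beside 13.0% and 9.58% of all genes. Idh3g, a regulatory subunit of isocitrate dehydrogenase, had the lowest mean (-1.21 ± 0.36 (SD, n = 4); limma, adjusted p = 0.344; 0.069 in the rows as deposited). Sdhc, a membrane anchor of succinate dehydrogenase, had -0.56 ± 0.13 (SD, n = 4). Sdhd, the other anchor, had 1.47 ± 2.12 (SD, n = 4), the highest mean, with values from -0.94 to 3.69. Its fitted mean was 0.64 without array 2 and 0.55 without array 4.

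**Figure D4:**
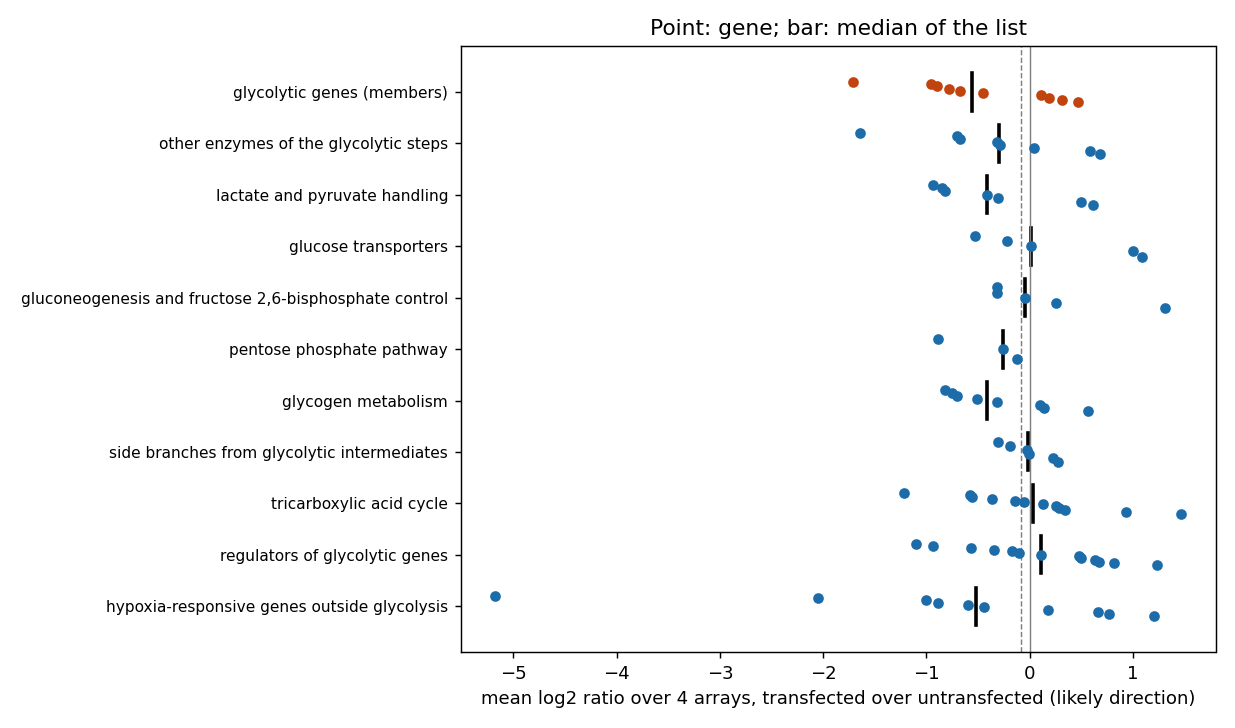
Mean log2 ratio over 4 arrays (horizontal axis) of each tested gene in the glycolytic set (red) and in 10 lists of neighbouring pathways (blue); black bars are list medians, the solid line is 0 and the dashed line the median of all tested genes. The median of the glycolytic set is -0.56, and the list medians run from -0.52 for hypoxia-responsive genes to 0.11 for regulators.

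Regulators of glycolytic genes had a median of 0.11 over 13 tested of 20 listed, with 1 below and 3 above 0 on 4 of 4 arrays and 0 called. Hif1a, the oxygen-regulated subunit of hypoxia-inducible factor 1, had the lowest mean, -1.10 ± 1.56 (SD, n = 4). Its fitted mean was -0.42 without array 3 and then above that of Egln1 (-0.78). One of its probes had -1.10, -1.22, -1.83 and -0.53 on arrays 1 to 4, and the other ranged from -4.90 to 1.5. Egln1 encodes the prolyl hydroxylase that marks HIF for degradation and had -0.94 ± 0.25 (SD, n = 4), below 0 on every array. Mlx, a partner of the glucose-sensing Mondo factors, had the highest mean at 1.23 ± 0.86 (SD, n = 4).

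Hypoxia-responsive genes outside glycolysis had a median of -0.52 over 10 tested of 18 listed, with 4 below and 1 above 0 on 4 of 4 arrays. Ero1a, an oxidase of disulphide formation, had -2.05 ± 0.66 (SD, n = 4), and the collagen prolyl hydroxylase genes P4ha1 and P4ha2 had -0.89 ± 0.34 and -1.0 ± 0.53 (SD, n = 4 each). Ndrg1, which responds to hypoxia and differentiation, lay on the other side at 1.21 ± 0.36 (SD, n = 4). In the rows as deposited the means of P4ha2 and Ndrg1 were -0.15 and 0.57. Lox had the lowest mean of all tested list genes, -5.18 ± 0.95 (SD, n = 4), with limma's adjusted p at 0.105. One Lox probe had a value on array 1 alone, 0.38, where the others had -4.69 and -7.12. Limma called Lox under 3 alternatives: without the dye term (adjusted p = 0.0398), with the median of the probes (0.0396) and with scaled arrays (0.027). Its adjusted p ranged from 0.027 to 0.61 over the alternatives run on its mean. The Lox mean was -3.29 with values beyond 15 kept (limma, unadjusted p = 0.118) and -2.31 in the rows as deposited. Several of these hypoxia-responsive genes act on collagen. Of the fibroblast markers 8 of 12 were tested, with list means between -1.43 and -1.04 over the arrays and a median of -0.14. They went both ways: 4 means were below 0 and 4 above, from Col1a1 at -4.91 and Fn1 at -3.89 to Vim at 0.66, above 0 on every array, and Col3a1 at 0.89. Their part in these ratios was not tested. Over all 10 lists, 11 of 77 tested genes (14.3%) were lower at limma's unadjusted p under 0.05 and 4 (5.19%) were higher, beside 7.49% and 4.05% of all genes. The former count was 5, 3 and 4 without array 1, 2 and 3, and 5 in the rows as deposited. Below 0 on 4 of 4 arrays lay 16 of the 77 genes (20.8%), and above 0 lay 7 (9.09%), beside 13.0% and 9.58% of all genes.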

How the data were processed

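The authors deposited 1 log2 ratio per probe and array. How images were read and how background and dyes were corrected is not stated in the labels or the file, and the log base was read from the values. The platform annotation gave 1 gene symbol for 14030 of 20355 rows, several for 5 and none for 6320; RefSeq (GRCm38.p6) held the gene identifier of 13994 and changed 0 symbols. Values beyond 15 either way were dropped. Rows 1 to 6000 were used as they stood. In rows 8001 to 18000 array 1 correlated with arrays 2, 3 and 4 at r = 0.119, 0.07 and 0.054 when these were read 3 rows higher, but at 0.005, 0.001 and -0.012 as deposited. From row 18301 the values were 0.215, 0.126 and 0.177 when read 4 rows higher, and 0.027, -0.057 and 0.01 as deposited. Both blocks were therefore read with that move, and the other 2300 rows were left out. These correlations are across probes, which are not independent replicates.

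Each gene's probes were averaged by array. Genes with 4 values were tested with limma 3.58.1 (lmFit and eBayes, R 4.3.3) on the mean over dye orientations plus a dye term, with Benjamini-Hochberg adjustment over all 6327 genes and a threshold of 0.05. The script was tested on simulated data. An exact sign-flip test of 1 gene cannot go below p = 0.125 with 4 arrays and was not used. The number of arrays limits the precision; 94.6%, 81.0%, 76.8% and 89.4% of rows had a value on arrays 1 to 4, and arrays correlated across genes with r from 0.12 to 0.20. The genes and lists were chosen with earlier results of these data known. From each list the genes with the lowest and the highest mean are named, with a choice, made after their values were seen, of others whose arrays all shared a sign. Alternatives were the dye term, centring, scaling, robust variances, the minimum number of arrays, the treatment of probes, extreme values and rows, and leaving out each array. Promoter windows come from a RefSeq table.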

Additional observations from a re-analysis of the deposited data

Results flagged for a closer look

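The 10 members and the 77 tested genes of the pathway lists were checked for an array far from the other 3, and 6 of these 87 genes had one. Among the members it was Tpi1, whose value on array 3 (-2.47) lay apart from -0.42, -0.22 and -0.02 on the others, with a gap of 0.838 of the whole range. Among the list genes, array 3 also lay apart for Tigar (1.62, gap 0.880), Pgm2 (-0.82, gap 0.834), Prkaa1 (1.74, gap 0.899) and Mtor (-3.04, gap 0.873), and array 1 did for Dlat (-1.83, gap 0.896). Chance alone would mark about 1 in 20 such sets.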

How the results depend on the processing

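Members called over all genes numbered 0 under every alternative run. Genes called in the whole table numbered 3 with arrays scaled to a common spread and 3 with the median of the probes, and 6 with every probe on its own or without the dye term; 1 gene of the pathway lists was called under each of these 4 settings, and 0 under the others. Counts at an unadjusted p and counts of members below 0 on every array were added to this comparison after seeing the data. The 3 members lower at an unadjusted p under 0.05 became 1 in the rows as deposited (8 members tested, without Hk1 and Ldhb) and 1 to 4 when 1 array was left out. The 6 members below 0 on every array became 3 in the first 6000 rows alone (3 members tested) and 3 in the rows as deposited (8 members tested). The median of the member means was -1.19 in the first 6000 rows, -0.17 in the lower rows alone (8 members tested), and -0.61 to -0.32 when 1 array was left out. With 1 array left out these were plain means of the remaining arrays, unlike the fitted means given for single genes. The 11 list genes lower at that level became 2 in the first 6000 rows, 5 in the rows as deposited and 3 to 8 when 1 array was left out. Signs turned in 6 of 129 values of the members and 9 of 386 of the named genes of the pathway lists; marker genes were not run under the alternatives. Gapdh turned with the median of the probes (-0.015) and in the rows as deposited (-0.098). In the rows as deposited they also turned for Slc16a3 (-0.58), Pcx (0.14), Slc2a2 (0.61), Fbp1 (-0.99), Gaa (0.064), Idh3g (0.069) and Eno1b (0.082). With 1 array left out, the fitted mean, from which a plain mean can differ in sign, ran from -0.48 (without array 3) to 1.41 for Aldoc. For Gapdh it ran from -0.094 (without array 4, with -0.072 without array 2) to 0.31. It ran from -0.19 (without array 4) to 1.41 for Mpc1, from -0.43 (without array 3) to 2.62 for Slc5a1, and from -0.38 to 0.13 (without array 2) for Taldo1. The causes of these turns were not tested. Both lines share each array, so each ratio already pairs them within an array. The arrays form 1 group, and no further pairing was used. The row at which arrays 2 to 4 slip is not known exactly, and values in the lower rows rest on the move.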
